A study of Mus musculus with 157 samples.

Results

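RNA polymerase II (Pol II) on mouse genes was compared between 2 h and 6 h of retinoic acid (RA), an interval within the first hours of differentiation. The cells were E14, a mouse embryonic stem cell line, kept on gelatin with serum and leukaemia inhibitory factor (LIF) until 1 µM RA was given. All 8 crosslinked ChIP-seq libraries of Pol II labelled 2 h and all 9 labelled 6 h were taken, 17 of the 157 samples of the series. No untreated (0 h) library enters the difference, so a gene that had already responded in full by 2 h is not counted again. Total Pol II was precipitated through the N-terminal domain of its largest subunit (NTD), with 2 libraries at 2 h (replicates 1 and 4) and 3 at 6 h (replicates 1, 3 and 4). Pol II phosphorylated on the C-terminal repeat at serine 5 (Ser5p) or serine 2 (Ser2p) had 3 libraries at each time (replicates 1, 3 and 4). The NTD comparison therefore has a replicate 3 at 6 h and none at 2 h, which is stated again beside the gene groups where it bears. Nothing in the labels says that replicates were separate cultures, so p-values here speak only of how far these libraries spread, a spread that can be technical.

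The authors deposited raw read counts in 4 tables: NTD and Ser5p in a window of 1 kb on either side of each transcription start site (TSS), and NTD and Ser2p over gene bodies. Levels are given as CPM, counts scaled to one common total per library and table, and a change is the log2 ratio of 6 h to 2 h with its standard error (SE). Depth in the libraries compared ran from 1605301 to 2832232 counts at TSS and from 16221068 to 28745658 over gene bodies. The stem cell label was checked on NTD at TSS, where the windows have equal length. At 2 h the 10 general pluripotency genes summed to 753 and 851 CPM and the 13 fibroblast genes to 90.9 and 92.6 CPM. Of 11 listed genes of the 2-cell-like state only 2 were tested there, and these summed to 3.66 and 10.7 CPM. That sum is not comparable with those of the other 2 lists, which were tested whole. No gene of the fibroblast list was at 0 counts, and the fibroblast list had a median change of -0.08 in NTD and -0.02 in Ser5p at TSS, and of -0.12 in NTD and 0.02 in Ser2p over gene bodies.

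RA enters the nucleus and binds heterodimers of RA receptors (RAR) and retinoid X receptors (RXR) that sit on DNA at direct repeats of a short half-site. Genes with such sites include those for the receptor RARB and for CYP26 enzymes, which degrade RA and so limit its own signal. Pol II is phosphorylated at serine 5 as it starts transcription and at serine 2 as it moves through the gene, so Ser5p collects at promoters and Ser2p along gene bodies. A search of the 250 bases upstream of RefSeq starts (build GRCm38.p6, the sequence of mm10), on both strands, found a spaced repeat (GTTCA, 6 free letters, GTTCA) in 22 of 32851 windows (0.067%). Of 37 windows of the RA metabolism and receptor list 2 (5.41%) held it, those of Cyp26a1 and Rarb. They are shown because they are the listed RA genes with the receptor's repeat just upstream of a start, as the 80-base stretch around the match (chr19:37697728-37697807, plus strand, and chr14:16575481-16575560, minus strand), with the match in capitals.
Cyp26a1: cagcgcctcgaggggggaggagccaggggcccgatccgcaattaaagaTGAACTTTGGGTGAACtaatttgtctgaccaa
Rarb: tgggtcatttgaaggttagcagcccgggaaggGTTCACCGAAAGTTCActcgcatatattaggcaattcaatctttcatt
The match in Cyp26a1 reads on the opposite strand. A match is a description of letters and not of a bound site. A gene can have several starts, and the start beside a match was not matched to the TSS whose values are given below.

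With all libraries of a table in the fit, which lets every time point inform the spread, edgeR's quasi-likelihood test with Benjamini-Hochberg adjustment called no transcript higher or lower at 6 h than at 2 h at an adjusted p of 0.05. That is 0 (0%) of 31868 transcripts for NTD at TSS, of 32774 for Ser5p at TSS, of 31843 for NTD over gene bodies and of 32123 for Ser2p over gene bodies. The smallest adjusted p by edgeR was 0.0888 for NTD at TSS, 0.922 for Ser5p, 0.696 for NTD over gene bodies and 1.00 for Ser2p. At an unadjusted p of 0.05 NTD at TSS had 1146 transcripts higher and 865 lower, Ser5p 536 and 971, NTD over gene bodies 904 and 693, and Ser2p 419 and 439. DESeq2 on the same libraries called 0 in both TSS tables and in Ser2p (531 and 421, 242 and 414, and 221 and 262 at an unadjusted p of 0.05), and for NTD over gene bodies 1 higher, Cyp26c1 (adjusted p = 0.0180), and 0 lower (962 and 424). The authors' deposited table for the same contrast has no adjusted p at or below 0.05 at TSS. Over gene bodies the authors' deposited table lists Cyp26c1, Hist3h2ba and Zfp423 as higher in NTD and Zfp423 as higher in Ser2p. It lists Ahnak, a very long gene for a scaffold protein, as lower in Ser2p (log2 change -0.20). The predicted gene Gm5941 also passes there, with a deposited log2 change of only -0.00.

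Counted by gene, with the transcript of highest mean count for each symbol, an unadjusted p of 0.05 was met for NTD at TSS by 742 genes higher (3.35% of 22143) and 640 lower (2.89%). For Ser5p at TSS it was met by 351 genes higher (1.53% of 22897) and 679 lower (2.97%). For NTD over gene bodies these were 628 higher (2.87% of 21879) and 521 lower (2.38%), and for Ser2p 290 higher (1.31% of 22154) and 320 lower (1.44%). These shares are the background for every count below, in which a gene is said to be past the unadjusted threshold and is not called changed.

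A fit of only the 2 h and 6 h libraries, which estimates a smaller spread, made calls for NTD. For NTD over gene bodies it called 673 genes higher (3.15% of 21343) and 340 lower (1.59%), where the biological coefficient of variation was 0.0647, against 0.118 with all libraries. For NTD at TSS it called 9 genes higher (0.0456% of 19755) and 1 lower (0.00506%). For Ser5p without a block and for Ser2p it called 0 (602 higher and 1096 lower transcripts for Ser5p, and 465 and 467 for Ser2p, at an unadjusted p of 0.05). The names of genes called this way are given with their groups, each time as calls of the fit of 2 h and 6 h alone.

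The change in NTD depended on how much Pol II a gene had. When transcripts were split into 8 groups by mean signal, the median log2 change in NTD at TSS ran from -0.39 in the lowest to 0.15 in the highest. Over gene bodies, by CPM per kb of gene, it ran from -0.15 and -0.19 in the 2 lowest groups to 0.23 in the highest. Ser5p (-0.07 to 0.03) and Ser2p (-0.04 to 0.01) had no slope of that size. The transcripts called higher for NTD over gene bodies in the fit of 2 h and 6 h alone lay in short genes (median gene length 9.96 kb, 2.02 CPM per kb). Those called lower lay in long genes (173 kb, 0.341 CPM per kb), against 22.5 kb and 0.598 CPM per kb for the rest. Length here is that of the whole gene, so a short transcript of a long gene appears sparser than it is. NTD counts at TSS amounted to 8.58 and 9.68% of NTD counts over gene bodies at 2 h and to 10.6, 12.2 and 12.3% at 6 h. Olfactory and vomeronasal receptor genes, which are silent in stem cells, summed in NTD at TSS to 6280 and 4860 CPM at 2 h and to 4410, 3630 and 3790 CPM at 6 h. In Ser5p they summed to 10100, 6440 and 8180 CPM and to 8180, 7520 and 7610 CPM, which overlap. The part of signal at silent genes in the NTD changes was not tested, so several gene groups below are also given after each library's trend with signal level was removed (level-scaled).

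**Figure D1:**
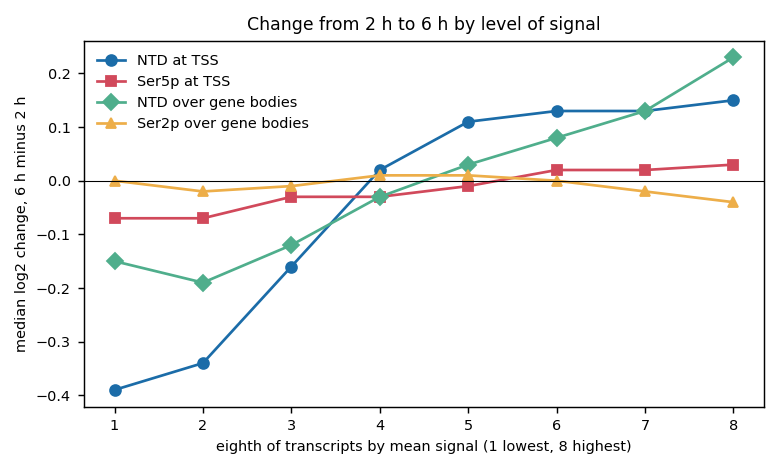
Median log2 change from 2 h to 6 h (vertical axis) in 8 groups of transcripts ordered by mean signal (horizontal axis), 1 line per table. Both NTD lines climb, from -0.39 to 0.15 at TSS and from -0.15 to 0.23 over gene bodies, while the Ser5p and Ser2p lines stay between -0.07 and 0.03.

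Among the genes of RA breakdown, Cyp26c1 had the highest change over gene bodies. This enzyme gene (chromosome 19, 37685112 to 37693320, mm10) lies just upstream of Cyp26a1 (37697738 to 37701536). NTD over Cyp26c1 was 8.77 and 8.52 CPM at 2 h and 18.0, 18.2 and 15.8 CPM at 6 h, so all 6 h libraries lay above both 2 h libraries. The 4 h libraries lay between them at 12.6, 12.9 and 13.6 CPM, and the 0 h libraries below at 5.14 and 4.85 CPM. The log2 change in NTD over Cyp26c1 was 1.00 ± 0.19 (unadjusted p = 1.07e-04, adjusted p = 0.696 by edgeR), and the fit of 2 h and 6 h alone called it (adjusted p = 3.32e-05). Ser2p over Cyp26c1 was 8.50, 8.56 and 7.95 CPM at 2 h and 12.5, 12.2 and 11.2 CPM at 6 h, again without overlap (0.52 ± 0.18, unadjusted p = 0.0110). At the Cyp26c1 TSS the changes were 0.37 ± 0.28 in NTD and 0.43 ± 0.24 in Ser5p.

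Cyp26a1, the neighbour with the receptor repeat in its promoter, already had several times its 0 h level of Pol II at 2 h. At its TSS NTD was 65.1 and 48.1 CPM at 2 h and 95.7, 75.1 and 67.8 CPM at 6 h, against 13.4 and 11.2 CPM at 0 h (6 h against 2 h: 0.49 ± 0.27, unadjusted p = 0.0761 by edgeR). Over the body of Cyp26a1 NTD was 12 and 8.57 CPM at 2 h and 18.1, 19.3 and 13.7 CPM at 6 h (0.73 ± 0.44), which the fit of 2 h and 6 h alone called (adjusted p = 0.00693). Ser2p over Cyp26a1 overlapped between the times, with 6.19, 6.37 and 4.31 CPM and then 7.51, 8.33 and 6.30 CPM. Cyp26b1, the third gene of the family, had changes of 0.28 ± 0.20 in NTD and 0.16 ± 0.10 in Ser2p over its body.

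Stra8, which RA induces and which germ cells need to enter meiosis, and Nrip1, a corepressor of nuclear receptors, also had more NTD over their bodies at 6 h. NTD at the Stra8 TSS was 43.0 and 22.5 CPM at 2 h and 50.2, 56.3 and 51.9 CPM at 6 h (0.70 ± 0.24, unadjusted p = 0.00546 by edgeR). Over the Stra8 body NTD changed by 0.70 ± 0.29, while Ser2p, at 21.3, 31.5 and 18.5 and then 30.9, 31.1 and 21.8 CPM, overlapped. In replicate 3 of Ser2p, Stra8 was level between the times, and the NTD groups lack that replicate at 2 h. NTD over Nrip1 was 70.8 and 68.2 CPM at 2 h and 91.8, 102 and 91.3 CPM at 6 h (0.45 ± 0.13, unadjusted p = 0.00444), and Ser2p over Nrip1 was 64.2, 79.3 and 70.6 CPM and then 87.6, 85.5 and 80.7 CPM (0.25 ± 0.11). Neither overlapped, and the fit of 2 h and 6 h alone called Stra8 (adjusted p = 0.00439) and Nrip1 (adjusted p = 0.00313) for NTD over the body.

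No RA receptor gene was past the unadjusted threshold in any table. Rarb, the RA receptor gene with the second repeat shown above, had 49.6 and 49.1 CPM of NTD at its TSS at 2 h and 50.7, 68.5 and 68.2 CPM at 6 h (0.35 ± 0.25, without overlap), and a Ser5p change of 0.01 ± 0.25. Over the Rarb body NTD changed by -0.21 ± 0.14. The whole gene spans 16430839 to 17082331 of chromosome 14, and the transcript counted can be shorter. Rara and Rarg, which encode the other RA receptors, changed at the TSS by 0.23 ± 0.22 and -0.17 ± 0.20 in NTD. Dhrs3, a retinaldehyde reductase gene, changed by 0.30 ± 0.27 in NTD and 0.20 ± 0.20 in Ser2p over its body, with no overlap between the times in either. Aldh1a1, a gene of RA synthesis, went the other way in NTD over its body, from 17.3 and 14.5 CPM to 12.1, 10.3 and 10.5 CPM (-0.54 ± 0.19, unadjusted p = 0.0140 by edgeR). Ser2p over Aldh1a1 overlapped (-0.19 ± 0.16).

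**Figure D2:**
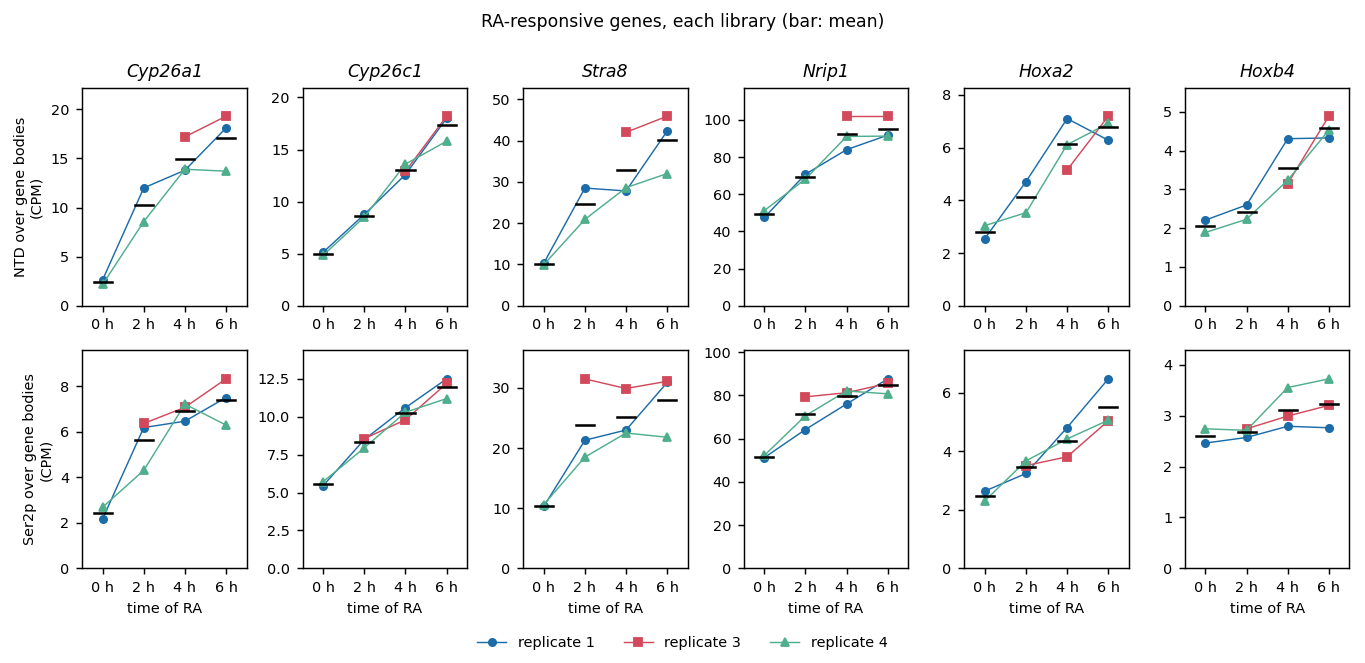
Levels of 6 RA-responsive genes over gene bodies in CPM (vertical axes, from 0) at 0, 2, 4 and 6 h of RA (horizontal axes), for NTD (upper row) and Ser2p (lower row). Points are libraries, lines join libraries of one replicate number and bars are means; Cyp26c1 stands at 15.8 to 18.2 CPM of NTD at 6 h against 8.52 and 8.77 CPM at 2 h.

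Of all 25 genes of RA metabolism and receptors, 4 were past the unadjusted threshold upward in NTD over gene bodies (Cyp26c1, Stra8, Nrip1 and Stra6, a vitamin A transporter gene) and Aldh1a1 downward, where the background was 2.87% and 2.38%. In Ser2p 2 were past it upward, Cyp26c1 and Nrip1, and none downward. At TSS the counts were 1 and 0 for NTD and 0 and 1 for Ser5p. The list's median change was 0.07 for NTD over gene bodies, 0.06 for NTD at TSS, 0.01 for Ser5p and -0.04 for Ser2p, beside 0.01, 0.02, -0.01 and -0.01 for all transcripts. Level-scaled, the list's medians were 0.03, 0.05, 0.01 and -0.01. The difference between these hours lay in a few members and not in the list as a whole.

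The anterior Hox genes, long known as RA targets in the hindbrain, mostly had more NTD over their bodies at 6 h. Of 15, 12 had a change above 0 and 5 were past the unadjusted threshold upward, with none downward and a median of 0.37 (0.28 level-scaled). Hoxb4 went from 2.60 and 2.23 CPM at 2 h to 4.33, 4.89 and 4.53 CPM at 6 h (0.92 ± 0.27, unadjusted p = 0.00352 by edgeR). Hoxa2, a hindbrain gene, went from 4.71 and 3.53 to 6.28, 7.19 and 6.92 CPM (0.72 ± 0.31). In both genes the 6 h libraries lay above those of 2 h. The fit of 2 h and 6 h alone called 5 of the 15 higher, Hoxa2 and Hoxb4 among them, where it called 3.15% of all genes higher.

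Ser2p stood higher with NTD at Hoxa2. Ser2p over Hoxa2 was 3.24, 3.51 and 3.67 CPM at 2 h and 6.47, 5.04 and 5.06 CPM at 6 h (0.66 ± 0.26, unadjusted p = 0.0212 by edgeR), without overlap. Ser2p over Hoxb4 changed by 0.28 ± 0.20. At the TSS, NTD changed by 0.61 ± 0.28 at Hoxa2 and 0.71 ± 0.33 at Hoxb4, and Ser5p by 0.39 ± 0.23 and 0.02 ± 0.23. In Ser2p 1 of the 15 was past the unadjusted threshold upward, Hoxa2, and 1 downward, and changes ran from -0.43 to 0.66. The list's median was 0.14 for NTD at TSS, -0.14 for Ser5p and 0.10 for Ser2p, and -0.13 for Ser5p when level-scaled. The Ser2p median was -0.02 in replicate 1, 0.16 in replicate 3 and 0.15 in replicate 4. Within replicate numbers the Ser5p median was -0.26, 0.39 and -0.08 in replicates 1, 3 and 4, so its sign differed between replicates. Neighbouring Hox genes lie a few kb apart and their windows can share reads, so they are not independent of each other.

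Zfp423, which encodes a zinc finger cofactor of RA receptors, was the clearest long gene. The whole gene spans 87661810 to 87962053 of chromosome 8. The transcript measured has many reads, and so small errors. NTD over Zfp423 was 214 and 219 CPM at 2 h and 289, 300 and 288 CPM at 6 h, against 207 and 235 CPM at 0 h (6 h against 2 h: 0.44 ± 0.11, unadjusted p = 0.00141 by edgeR). Ser2p over Zfp423 was 215, 226 and 221 CPM and then 267, 249 and 262 CPM (0.23 ± 0.08, unadjusted p = 0.00762), also without overlap. In NTD the 2 h level of Zfp423 lay within the range of 0 h, and its TSS libraries overlapped (0.05 ± 0.29 in NTD, -0.02 ± 0.23 in Ser5p). The fit of 2 h and 6 h alone called Zfp423 for NTD over the body (adjusted p = 0.00313). The authors' deposited adjusted p at or below 0.05 belong to another Zfp423 transcript. For that transcript the deposited log2 change was 0.34 in NTD (adjusted p = 2.49e-04) and 0.19 in Ser2p (adjusted p = 0.0245). The transcript whose levels are given here did not pass there. Cdx1, a caudal-type homeobox gene that RA induces within hours, had changes of 0.10 ± 0.24, 0.01 ± 0.20, 0.07 ± 0.19 and 0.04 ± 0.14 in the 4 tables, and its 2 h and 6 h libraries overlapped in each.

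Of the pluripotency genes, Nr0b1 had less Pol II at 6 h in every table. Nr0b1 (chromosome X, 86191775 to 86195947), also called Dax1, encodes an orphan nuclear receptor of the naive state. NTD at its TSS was 42.4 and 49.6 CPM at 2 h and 28.8, 20.8 and 30.7 CPM at 6 h (-0.77 ± 0.23, unadjusted p = 0.00160 by edgeR). Ser5p at the Nr0b1 TSS was 39.8, 42.1 and 58.0 CPM and then 27.2, 26.8 and 34.7 CPM (-0.67 ± 0.19, unadjusted p = 0.00121). Over the Nr0b1 body NTD was 10.3 and 10.5 CPM and then 6.09, 5.87 and 7.77 CPM (-0.66 ± 0.19), and Ser2p was 4.21, 4.79 and 5.31 CPM and then 2.98, 3.20 and 3.13 CPM (-0.62 ± 0.11, unadjusted p = 3.63e-05). The groups did not overlap in any of the 4 tables, and Nr0b1 was called lower for NTD over the body in the fit of 2 h and 6 h alone (adjusted p = 0.00937).

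Other pluripotency genes lay lower in some tables and not in others. Tdh, the threonine dehydrogenase gene, lay lower at 6 h without overlap in NTD at TSS (38.2 and 34.5, then 25.9, 20.8 and 22.2 CPM; -0.66 ± 0.26) and in Ser2p over its body (21.5, 27.6 and 22.7, then 20.6, 18.3 and 18.2 CPM; -0.33 ± 0.11, unadjusted p = 0.00903 by edgeR). Zfp42, also called Rex1, lay lower without overlap in NTD at TSS (109 and 92.5, then 78.4, 62.4 and 77.1 CPM; -0.47 ± 0.21). Fgf4, a growth factor gene of stem cells, lay lower in Ser5p (34.3, 48.5 and 42.3, then 26.7, 23.2 and 29.9 CPM; -0.65 ± 0.20) and not in NTD at TSS (-0.06 ± 0.23). The core genes Pou5f1, Nanog and Sox2 had NTD changes at TSS of -0.34 ± 0.21, -0.06 ± 0.26 and -0.05 ± 0.22. Of 20 naive genes, 3 were past the unadjusted threshold downward in NTD at TSS, 2 in Ser5p, 1 in NTD over gene bodies and 2 in Ser2p, with none upward and medians of -0.05, -0.13, -0.01 and -0.05. Of 10 general pluripotency genes none was past it in any table. The naive median in replicates 1, 3 and 4 was 0.18, -0.27 and -0.12 in Ser5p. In Ser2p it was 0.18, -0.19 and -0.21, and the general pluripotency median was 0.16, -0.30 and -0.23. The sign of these medians thus differed between replicates. Level scaling moved the naive median for NTD over gene bodies from -0.01 to -0.16, with 18 of 20 below 0, and the general one from 0.04 to -0.17.

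Genes of glycolysis and of the response to low oxygen mostly had more Pol II at 6 h. This list of 42 genes was put together after values had been seen, so its counts describe it and support nothing. For NTD at TSS 15 were past the unadjusted threshold upward and 0 downward (38 of 42 above 0, median 0.30, level-scaled 0.19). For NTD over gene bodies 17 and 0 were past it (median 0.31, level-scaled 0.18), for Ser5p 8 and 0 (median 0.20, level-scaled 0.16), and for Ser2p 6 and 0 (median 0.12, level-scaled 0.12). The hypoxia-inducible factor, which switches on such genes, binds the core letters ACGTG or GCGTG. Of the list's 52 upstream windows of 250 bases, 41 (78.8%) held either one on either strand, against 12679 of 32851 (38.6%) of all windows. Of anterior Hox windows 5 of 9 (55.6%) held one, and of RA metabolism and receptor windows 14 of 37 (37.8%). Genes inducible by low oxygen were put in the list, and every window counts whether or not its gene changed. The share therefore says nothing of the change at 6 h. The 80-base stretches upstream of a start of Slc16a3 (chr11:120948987-120949066, plus strand) and Pgk1 (chrX:106186912-106186991, plus strand) are shown because these genes had among the largest changes in NTD at TSS. Capitals mark the match or, as CACGT, its reverse.
Slc16a3: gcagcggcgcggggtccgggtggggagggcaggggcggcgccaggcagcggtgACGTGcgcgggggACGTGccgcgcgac
Pgk1: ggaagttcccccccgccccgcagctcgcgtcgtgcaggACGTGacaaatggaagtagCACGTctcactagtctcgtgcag
The letters are short and common, and no binding of the factor was measured.

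Slc16a3, which encodes the lactate exporter MCT4, had the smallest unadjusted p of any gene for NTD at TSS. NTD there was 16.1 and 15.7 CPM at 2 h and 36.9, 55.8 and 29.3 CPM at 6 h (1.34 ± 0.26, unadjusted p = 5.75e-06, adjusted p = 0.0888 by edgeR), and the fit of 2 h and 6 h alone called it (adjusted p = 0.00834). At 0 h the Slc16a3 TSS had 22.2 and 18.7 CPM. Ser5p at Slc16a3 was 19.1, 37.0 and 20.6 CPM at 2 h and 36.4, 50 and 27.1 CPM at 6 h (0.55 ± 0.21), which overlap, with replicate 3 highest at both times. Pgk1, a glycolytic kinase gene, had 28.1 and 16.7 CPM of NTD at TSS and then 44.4, 60.9 and 34.1 CPM (1.05 ± 0.26), and Ser5p of 21.7, 25.1 and 27.7 CPM and then 36.4, 54.0 and 28.5 CPM (0.66 ± 0.20). Pfkl, a phosphofructokinase gene, had 62.1 and 62.7 CPM of NTD at TSS and then 104, 122 and 88.9 CPM (0.74 ± 0.20), and Ser5p of 49.4, 65.5 and 41.6 CPM and then 82.8, 106 and 75.0 CPM (0.75 ± 0.21). Pgk1 and Pfkl overlapped in neither TSS table. Ldha, the lactate dehydrogenase gene, and Bnip3, a mitophagy gene, had NTD changes at TSS of 0.60 ± 0.24 and 0.87 ± 0.26 and Ser5p changes of 0.53 ± 0.24 and 0.81 ± 0.21, with overlap between the times except in NTD at Bnip3.

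At TSS, replicate 3 was the highest library for this group at 2 h and 6 h wherever it exists. The 42 genes summed in NTD at TSS to 2460 and 2250 CPM at 2 h (replicates 1 and 4) and to 3030, 3440 and 2800 CPM at 6 h (replicates 1, 3 and 4). In Ser5p they summed to 2110, 2590 and 2130 CPM and then 2680, 3060 and 2310 CPM. Within a replicate number, the median change of the group was 0.31 in replicate 1 and 0.28 in replicate 4 for NTD at TSS, and 0.31, 0.23 and 0.11 in replicates 1, 3 and 4 for Ser5p. For Ser2p it was 0.26, 0.06 and 0.03. So the NTD difference is there without replicate 3, and the Ser2p difference comes mostly from replicate 1. Not all such genes took part: Vegfa, a blood vessel growth factor gene induced by low oxygen, had changes of 0.09 ± 0.21 in NTD and -0.02 ± 0.18 in Ser5p at its TSS.

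Replication-dependent histone genes, which are transcribed in S phase and lie in clusters, had the highest median NTD change of the lists. This group of 61 was also formed after values had been seen. All 61 had an NTD change above 0 at TSS (median 0.54, 37 past the unadjusted threshold upward, 0 downward) and over gene bodies (median 0.76, 33 and 0). In Ser5p 60 of 61 were above 0 (median 0.28, 6 and 0 past the threshold), and in Ser2p 60 of 61 (median 0.31, 0 and 0). Level-scaled medians were 0.33, 0.50, 0.24 and 0.42 for NTD at TSS, NTD over gene bodies, Ser5p and Ser2p. Histone genes are near-identical copies a few kb apart, so how reads were shared among them is uncertain and the 61 are far from independent. Their bodies are shorter than the TSS window, which therefore covers them whole.

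Hist3h2ba, a histone H2B gene outside the main clusters (chromosome 11, 58948911 to 58949372), had 41.2 and 39.7 CPM of NTD in its TSS window at 2 h and 77.3, 102 and 88.2 CPM at 6 h. The change at Hist3h2ba was 1.14 ± 0.23 (unadjusted p = 8.36e-06, adjusted p = 0.0888 by edgeR). Ser5p at Hist3h2ba was 43.3, 93.6 and 57.3 CPM at 2 h and 74.5, 92.4 and 96.4 CPM at 6 h (0.43 ± 0.23), where replicate 3 did not move. Hist1h1e, a linker histone gene, had NTD of 235 and 182 CPM and then 393, 373 and 356 CPM (0.84 ± 0.25), and Ser5p of 235, 334 and 218 CPM and then 376, 379 and 447 CPM (0.61 ± 0.25), with no overlap in either. The fit of 2 h and 6 h alone called 61 of 61 histone genes higher for NTD over gene bodies, where it called 3.15% of all genes higher. For NTD at TSS it called 5 (Hist1h1a, Hist1h1d, Hist1h1e, Hist2h2bb and Hist3h2ba), where it called 0.0456% of all genes higher.

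For the histone genes replicate 3 stood apart from replicates 1 and 4 at 2 h. Summed over the group, Ser5p was 14000, 24400 and 15600 CPM at 2 h and 19500, 21600 and 22100 CPM at 6 h in replicates 1, 3 and 4, so replicate 3 was already high at 2 h. Ser2p showed the same, with 237, 646 and 366 CPM and then 462, 634 and 450 CPM. Within replicate numbers the median change for Ser5p was 0.48 in replicate 1, -0.12 in replicate 3 and 0.53 in replicate 4. NTD, which has no replicate 3 at 2 h, summed at TSS to 15100 and 12600 CPM and then to 17300, 22500 and 19600 CPM, and its median change was 0.19 in replicate 1 and 0.63 in replicate 4. A gain between 2 h and 6 h was thus seen in replicates 1 and 4 with all 3 antibodies and not in replicate 3, where the 2 phosphorylated forms could be compared.

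**Figure D3:**
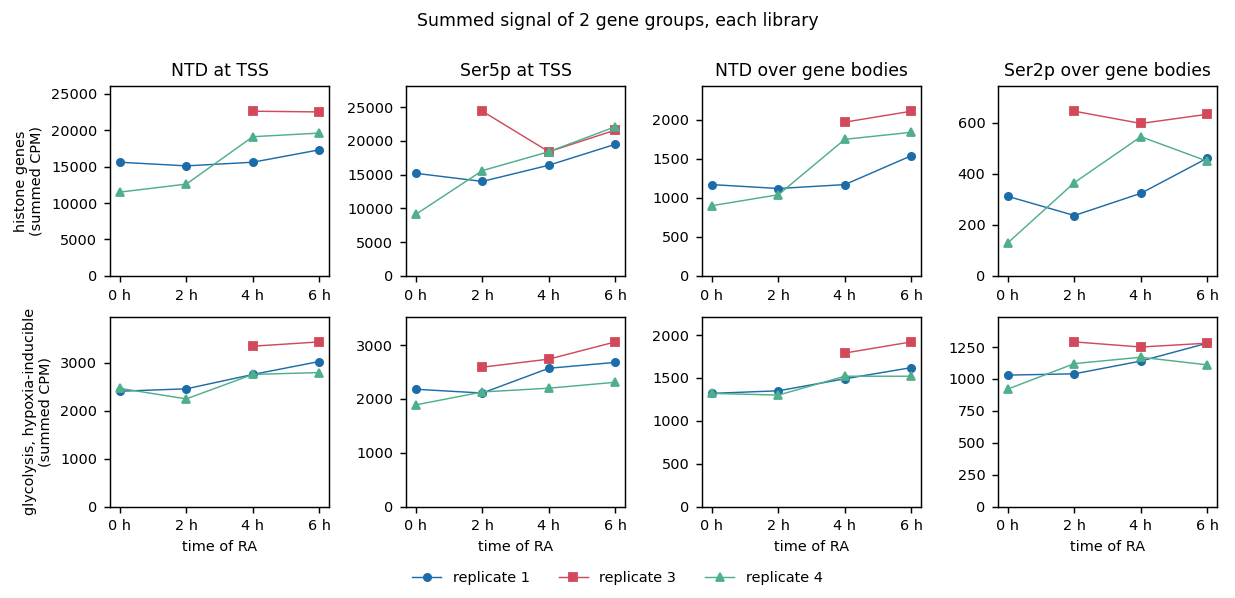
Summed CPM (vertical axes, from 0) of the 61 histone genes (upper row) and the 42 glycolysis and hypoxia-inducible genes (lower row) in each library at 0, 2, 4 and 6 h of RA (horizontal axes), 1 column per table, with lines joining one replicate number. Replicate 3 is absent for NTD at 2 h, and in Ser5p and Ser2p its histone sum at 2 h is the highest of the 3 (24400 and 646 CPM).

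Lists of developmental regulators that stem cells keep silent mostly had less Ser5p at their promoters at 6 h. Such promoters are known to carry Polycomb marks and Ser5p with little elongating Pol II. Of 16 posterior Hox genes, which pattern the trunk and limbs, 15 had a Ser5p change below 0, with 8 past the unadjusted threshold downward and 0 upward (background 2.97% and 1.53%) and a median of -0.51. Of 100 genes of the Pax, Irx, Lhx, Nkx, Tbx, Fox and sine oculis homeobox families, a group formed after values had been seen, 79 were below 0, 32 were past the threshold downward and 2 upward, and the median was -0.36. Lists of other lineages had the same sign, with 0 past the threshold upward in each. Their medians were -0.48 for mesoderm and primitive streak (6 of 14 past it downward) and -0.40 for trophoblast (4 of 12). For neural genes the median was -0.38 (8 of 23) and for primitive endoderm -0.26 (4 of 18). The list of other early RA targets, which is no lineage list, also lay lower in Ser5p (-0.28, 6 of 23 past the threshold downward and 0 upward). Level scaling left the posterior Hox median at -0.52 and that of the families at -0.32. Those of the other lineages stood at -0.47, -0.38, -0.37 and -0.26 in the same order, and that of the other early RA targets at -0.30.

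For total Pol II at the promoters of the posterior Hox genes and the families the medians lay near 0 under the scaling used here. With the authors' scale factors the median over all transcripts was 0.28 for NTD at TSS and 0.02 for Ser5p. The medians of these lists were not computed with those factors. The NTD medians at TSS were -0.01 for 15 posterior Hox genes and -0.02 for 97 genes of the families (5 past the threshold upward and 5 downward), and turned to 0.12 and 0.06 when level-scaled. In replicates 1 and 4 they were 0.26 and -0.05 for posterior Hox and 0.17 and -0.09 for the families, so their sign differed. The NTD medians at TSS of the other lists were -0.18 (mesoderm and primitive streak), -0.03 (trophoblast), 0.04 (neural), -0.05 (primitive endoderm) and 0.05 (other early RA targets). Over the bodies of the posterior Hox genes NTD stood lower, with a median of -0.26 (-0.20 level-scaled), 10 of 16 below 0, and 3 past the threshold downward and 0 upward (background 2.38% and 2.87%). For the families the NTD median over gene bodies was -0.00. Ser2p medians were -0.09 and -0.03. NTD signal at these promoters was low and its errors larger, as the values for Irx1 show, and the difference between the antibodies was not tested.

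Irx1, an Iroquois homeobox gene, had 30.7, 14.5 and 21.7 CPM of Ser5p at 2 h and 11, 6.06 and 10.4 CPM at 6 h in replicates 1, 3 and 4 (-1.25 ± 0.30, unadjusted p = 1.30e-04, adjusted p = 0.922 by edgeR), and its groups did not overlap. NTD at the Irx1 TSS was 5.37 and 7.31 CPM and then 6.34, 4.06 and 5.19 CPM (-0.31 ± 0.43). Skor1, a neural corepressor gene chosen after its values were seen, had 50.4, 20.4 and 42.3 CPM of Ser5p and then 13.8, 11.6 and 22.3 CPM (-1.23 ± 0.31). Hoxd11, a limb and trunk gene, had 56.4, 24.7 and 41.2 CPM and then 19.8, 12.1 and 28.0 CPM (-1.01 ± 0.30). Pax2, a kidney and midbrain gene, had 54.9, 24.2 and 40.4 CPM and then 18.4, 13.1 and 29.9 CPM (-0.94 ± 0.29). In these 3 genes the groups overlapped while every replicate number was lower at 6 h, and replicate 3 was the lowest at both times. T, the brachyury gene of mesoderm, had 43.8, 16.2 and 32.6 CPM and then 15.2, 11.1 and 25.2 CPM (-0.83 ± 0.29), and Foxa2, an endoderm and floor plate gene, had 36.3, 20.4 and 30.0 CPM and then 12.9, 16.2 and 22.3 CPM (-0.74 ± 0.24). Foxa2 was lower in NTD at its TSS too, with 9.55 and 10.4 CPM and then 5.77, 5.07 and 6.30 CPM (-0.79 ± 0.37). S100a10, which is no developmental regulator, had the smallest p in Ser5p, with 28.2, 59.1 and 33.0 CPM and then 15.2, 24.2 and 22.3 CPM (-0.97 ± 0.21, unadjusted p = 4.14e-05).

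**Figure D4:**
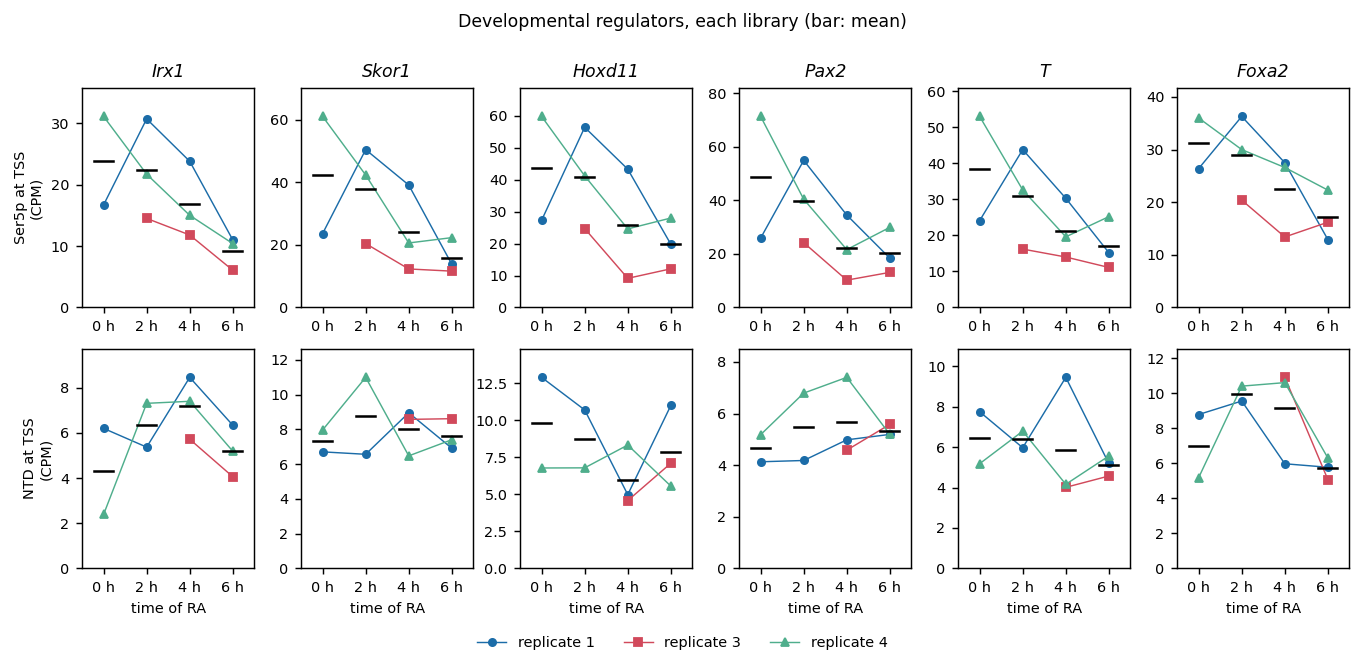
Levels at TSS in CPM (vertical axes, from 0) of 6 developmental regulator genes at 0, 2, 4 and 6 h of RA (horizontal axes), for Ser5p (upper row) and NTD (lower row). Points are libraries, lines join one replicate number and bars are means; each Ser5p line ends lower at 6 h than at 2 h, and the 0 h libraries differ widely (16.7 and 31.1 CPM at Irx1).

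For Ser5p the replicate numbers were taken to pair the samples, and the calls of the blocked fit rest on that choice. Same-numbered 2 h and 6 h libraries deviated together from their group means, with small correlations of 0.13, 0.37 and 0.24. In a fit of the 2 h and 6 h Ser5p libraries with the replicate number as a block, edgeR called 40 transcripts higher and 167 lower, against 0 and 0 without the block. By gene these were 26 higher (0.117% of 22211) and 128 lower (0.576%). With the block and every time in the fit 0 were called (943 higher and 1349 lower at an unadjusted p of 0.05, smallest adjusted p = 0.0527). The blocked fit of 2 h and 6 h called Skor1 (-1.22, adjusted p = 2.04e-05), Hoxd11 (-1.01, adjusted p = 2.42e-04), Irx1 (-1.27, adjusted p = 5.20e-04), Pax2 (-0.94, adjusted p = 5.87e-04) and T (-0.82, adjusted p = 0.0117) lower. It called 21 of the 100 family genes lower, among them Foxa2, Lhx1, Nkx6-1 and Tbx1, and 4 of 16 posterior Hox genes (Hoxa11, Hoxc9, Hoxd11 and Hoxd13). Its higher calls included 5 of the 42 glycolysis and hypoxia-inducible genes (Bnip3, Ldha, P4ha1, Pfkl and Pgk1) and 4 histone genes. Among its calls were also Nr0b1 and Fgf4, both lower.

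The difference in Ser5p was uneven across replicates. The median change of the posterior Hox genes was -0.85 in replicate 1, -0.31 in replicate 3 and -0.21 in replicate 4, and that of the families -0.68, -0.18 and -0.21. At 0 h the Ser5p libraries at Hoxd11 were as far apart as the groups of 2 h and 6 h, with 27.3 and 59.8 CPM in replicates 1 and 4. Replicate 4 was lower at 2 h than at 0 h at Hoxd11 (59.8, then 41.2 CPM), while replicate 1 stood higher at 2 h than at 0 h (27.3, then 56.4 CPM). Without 2 h replicate 3 the all-library fit called 3 transcripts lower. Transcripts past the unadjusted threshold downward sat in the middle of the Ser5p range, 268 and 287 of 971 in the 2 groups between 13.0 and 25.0 CPM.

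In other groups, differences in NTD over gene bodies shrank with level scaling. The 25 immediate early genes had 23 above 0 there with a median of 0.31, which was 0.07 level-scaled, and 0 past the unadjusted threshold in either direction. All 18 heat shock and p53 genes were above 0 there with a median of 0.22 (-0.01 level-scaled), whereas in Ser2p all 18 were below 0 with a median of -0.12 (15 of 18 level-scaled). Within replicate numbers the Ser2p median of that list was 0.22 in replicate 1 (17 of 18 higher) and -0.21 and -0.23 in replicates 3 and 4, so its sign differed between replicates. The 13 reference genes had a median of 0.32 in NTD over gene bodies (0.06 level-scaled), 0.21 in NTD at TSS, 0.07 in Ser5p and 0.00 in Ser2p. Genes of the ATF4 and amino acid response had medians of 0.35 in NTD over gene bodies (0.14 level-scaled) and 0.22 in Ser5p (4 of 18 past the threshold upward, 0 downward). The stress genes Chac1 and Trib3 had Ser5p changes of 0.53 ± 0.25 and 0.55 ± 0.21, and both were called in the blocked fit. Chac1 had 26.2, 34.0 and 65.5 CPM of Ser5p at 2 h and 68.6, 52.5 and 63.2 CPM at 6 h, which overlap, against 81.9 and 86.6 CPM at 0 h. All 20 cholesterol synthesis genes were above 0 in NTD over gene bodies with a median of 0.19 (0.09 level-scaled), and in Ser5p their median was 0.04.

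**Figure D5:**
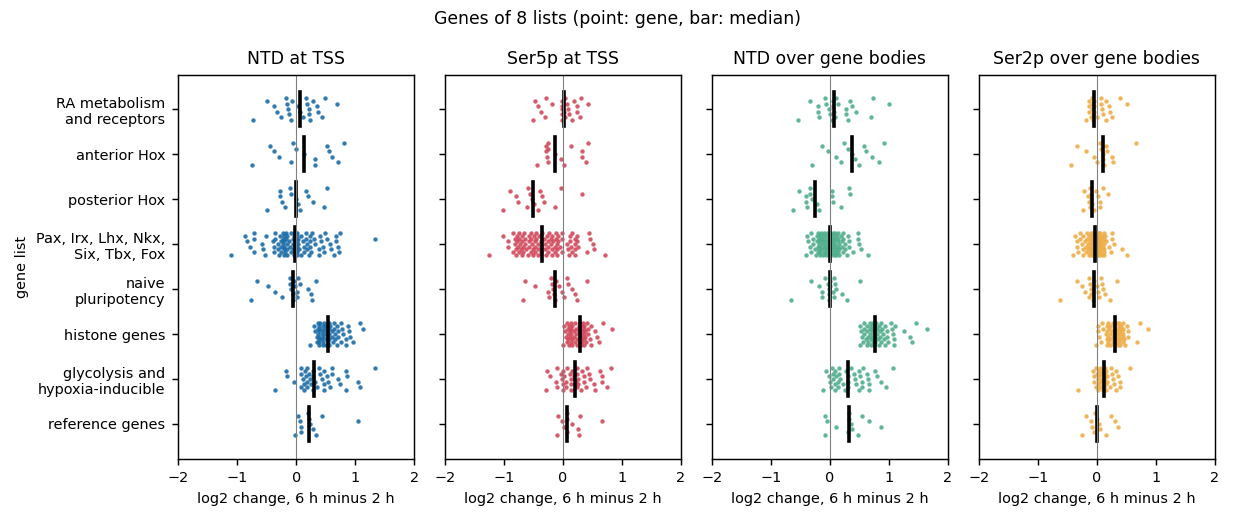
Log2 change from 2 h to 6 h (horizontal axes) of each gene (points) in 8 gene lists (rows), 1 panel per table, with the median of each list as a bar. The histone bars lie right of 0 in every panel (0.54, 0.28, 0.76 and 0.31), and the posterior Hox bar lies furthest left in Ser5p (-0.51).

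Genes past the unadjusted threshold were compared between antibodies, which share no library. Of the 742 genes higher in NTD at TSS, 78 (10.5%) were also higher in Ser5p, where 1.53% of all genes were. They are 22.2% of the 351 genes higher in Ser5p. They included 7 of the glycolysis and hypoxia-inducible list (Ankrd37, Bnip3, Ldha, Pfkl, Pgk1, Pgm2 and Slc16a3) and 6 histone genes. Of the 640 lower in NTD at TSS, 30 (4.69%) were lower in Ser5p (4.42% of its 679, background 2.97%), among them Nr0b1 and Foxa2. Opposite directions were met by 7 and 4 genes. Over gene bodies, 58 of 628 genes higher in NTD (9.24%) were higher in Ser2p (20.0% of its 290, background 1.31%), among them Cyp26c1, Nrip1, Hoxa2 and Zfp423 and 5 of the glycolysis list (Bnip3, Ldha, Pdk1, Pfkl and Slc16a3). Of the 521 lower in NTD, 13 (2.50%) were lower in Ser2p (4.06% of its 320, background 1.44%), Nr0b1 among them, and directions were opposite at 1 and 1. Whether same-numbered libraries of different antibodies came from the same chromatin is not given in the sources used here.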

How the data were processed

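Per the file headers, the authors deposited raw counts per RefSeq transcript, within 1 kb of the TSS (NTD, Ser5p) or over gene bodies (NTD, Ser2p). Beside them lie the authors' normalized signal (each count times a factor of its library, used here only for the authors' scale factors), log2 fold changes and adjusted p-values. Per the submitters' processing notes, Bowtie2, SAMtools, MACS2 and DESeq2 were used with builds mm10 and dm6, with no versions named and the counter not stated. Per the labels, a merged NTD track of 2 h omits replicate 3. Another 49 columns with values of samples or groups went unused. Transcripts tested in each table and the depth are given above, and transcripts without a symbol held 0.0166 to 0.0761 percent of counts and stayed in the fits.

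Each table was fitted on its own in edgeR 4.0.16 (R 4.3.3, limma 3.58.1, data.table package (1.17.8)): TMM, filterByExpr, quasi-likelihood, time as a factor over the 17 or 18 libraries of the table, contrast of 6 h with 2 h, Benjamini-Hochberg threshold 0.05. The edgeR fit of all libraries was also run on simulated counts. These had a single spread per table, no replicate effect and no trend with signal level. The other fits were not run on them. DESeq2 1.42.0 was an alternative. Others were the authors' scale factors, other count filters, the 2 h and 6 h libraries alone, each replicate left out, a replicate block and, chosen after seeing the data, level scaling (loess offsets) and pairs of these choices. A replicate number was taken to pair 2 h and 6 h libraries only in Ser5p, where all 3 correlations of deviations were positive. Those of Ser2p were -0.04, 0.45 and 0.11, and those of NTD, with 2 pairs, 0.02 and 0.16 at TSS and 0.22 and 0.14 over gene bodies. The NTD correlations were positive too, so their sign alone does not set Ser5p apart from NTD. Within-replicate changes are log2 ratios of CPM with 1 CPM added. Positions are 1-based (GRCm38), and promoter letters are RefSeq's. The span and length of a gene are those of the whole gene, given alike to all its transcripts. This length also set CPM per kb and the level scaling over gene bodies. Of the transcripts, 10193 to 11534 in a table have exactly the counts of another, and overlapping genes share reads, since ChIP-seq reads no strand. Figures used matplotlib 3.10.9 in Python 3.11.15.

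Members and lists were chosen with earlier results of these data known. Genes to be named were up to 6 per table and direction and up to 2 per list among those called, of which the main test left none, and 25 genes of a panel. Every other gene named was chosen after its values were seen.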

Additional observations from a re-analysis of the deposited data

How the results depend on the processing

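With all libraries in the fit, the 0 calls in each table and direction stayed 0 with the authors' scale factors (which moved the median of all NTD changes at TSS to 0.28), without a filter on low counts, with a mean of at least 50 counts and with the replicate block. DESeq2 called 1 transcript higher for NTD over gene bodies, and level scaling 2 lower for Ser2p, with a smallest adjusted p = 0.0499 by edgeR. Leaving out 0 h replicate 4 and 72 h replicate 3 together gave 6 higher for NTD at TSS. Leaving out single replicates gave 0 to 2 higher for NTD at TSS (2 without 6 h replicate 4) and 0 to 3 lower for Ser5p (3 without 2 h replicate 3), and 0 otherwise. The fit of 2 h and 6 h libraries alone called 13 higher and 2 lower for NTD at TSS and 1021 and 571 for NTD over gene bodies. With the authors' scale factors added these were 614 and 8, and 1290 and 432, and Ser5p had 1 and 4. With DESeq2 they were 21 and 1, and 443 and 471, and Ser5p had 0. With the replicate block they were 29 and 11, and 1702 and 1337, and Ser5p had 40 and 167. Ser2p had 0 in each of these. The number of NTD calls thus changes with the scaling, with the block and with whether other times inform the spread. For NTD and Ser2p the replicate number was not taken as a pairing, and the block results are given for completeness. The median SE of a change was 0.29, 0.24, 0.16 and 0.11 (NTD at TSS, Ser5p, NTD over gene bodies, Ser2p), so changes of that size were not detectable here.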

Other observations

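Rn45s, the ribosomal RNA precursor locus transcribed by Pol I, lay lower at 6 h in NTD at TSS (107 and 131 CPM at 2 h, then 57.1, 65.4 and 66.3 CPM; -0.92 ± 0.26, unadjusted p = 8.89e-04 by edgeR). Over its body NTD was 113 and 156 CPM at 2 h and 68.9, 74.1 and 97.9 CPM at 6 h (-0.74 ± 0.30), again without overlap. The fit of 2 h and 6 h alone called Rn45s lower in NTD at TSS (adjusted p = 8.05e-04 by edgeR) and over its body (adjusted p = 0.00107). Ser5p libraries overlapped, and the blocked fit of 2 h and 6 h called Rn45s lower in Ser5p (-0.63, adjusted p = 0.00332 by edgeR). The locus has many copies in the genome, so the share of its reads that was counted is uncertain.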
